A study of Mus musculus with 2 samples.

Results

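The erythropoietin receptor and its JAK2 to STAT5 signalling route were measured in MEL cells, a mouse erythroleukemia line that resembles immature red cell precursors and that dimethyl sulfoxide (DMSO) drives to make hemoglobin. The group described consists of 10 genes, taken as the rows whose Ensembl identifier maps to Epor, Jak2, Stat5a, Stat5b, Cish, Socs3, Ptpn6, Lyn, Sh2b3 and Pim1, out of 43346 Ensembl gene rows in each table. All 10 were found in both gene tables, with 43 annotated transcripts between them. The 2 libraries were total RNA of MEL cells held in 2% DMSO for 5 days, called replicate 2 and replicate 1 by the labels, and no untreated cells were among them. The labels number them as biological replicates but give both the same cell stock record. Whether they were separate cultures is therefore not known, and no comparison between conditions could be made.

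Erythropoietin is the hormone that keeps erythroid progenitors alive and lets them mature. It binds the receptor encoded by Epor, a cytokine receptor without enzyme activity of its own, which is attached to the tyrosine kinase JAK2. JAK2 phosphorylates the receptor tail, STAT5A and STAT5B dock there, are phosphorylated and enter the nucleus, and among the genes they switch on are Cish and Pim1. The proteins of Cish, Socs3, Ptpn6 and Sh2b3 damp the signal at the receptor or the kinase. MEL cells derive from mice infected with the Friend virus complex, whose envelope protein gp55 binds the erythropoietin receptor. Phosphorylation and protein were not measured here, so every value below is an RNA level.

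Replicate 2 was the deeper library, with 90856320 estimated counts, 75242 of them in the 10 genes. Replicate 1 had 65109488, of which 43844 were in the 10 genes. The level of a gene is given as TPM, a relative abundance per unit of transcript length that adds to the same total in both tables. Protein-coding genes held 12.9% of all TPM in replicate 2 and 13.5% in replicate 1, although they held 68.9% of counts in replicate 2 and 65.6% in replicate 1. Ribosomal RNA made up 2.92% of counts in replicate 2 and 7.8% in replicate 1. That share took in nuclear and mitochondrial ribosomal RNA genes and any gene overlapping a locus that resembles ribosomal DNA. Every one of 8 erythroid marker genes reached 1 TPM in each library, and none of 8 myeloid, 8 lymphoid or 8 mast cell markers did. Of 8 megakaryocyte markers, 3 reached it. Most TPM lay outside protein-coding genes, so 1 TPM was a strict threshold here. With TPM rescaled to nuclear protein-coding genes, Socs3 moved from 0.95 to 7.48 in replicate 2. In replicate 1 it moved from 0.94 to 7.11. A gene below 1 TPM is therefore not shown to be absent.

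The proximal promoters are shown for the receptor gene, for the feedback inhibitors Cish and Socs3 and for Pim1, since these carry the sequence matches that can be set beside the levels described next. They are RefSeq sequences on GRCm38.p6, printed 5′ to 3′ on the strand of the gene, with positions counted from the RefSeq transcription start as 1. RefSeq windows of 300 bases, from 250 before to 50 from the start onward, were matched for 9 of the 10 genes, 12 windows in all. Short motifs were searched on both strands, overlapping matches included: TTCNNNGAA, the core letters bound by STAT5, AGATAA with its reverse complement TTATCT, bound by GATA factors, and GGGCGG with its reverse complement CCGCCC, the GC box.

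The Epor window runs over bases -100 to -1, chr9:21963577-21963676, minus strand, with the GATA and GC box letters in capitals.
Epor: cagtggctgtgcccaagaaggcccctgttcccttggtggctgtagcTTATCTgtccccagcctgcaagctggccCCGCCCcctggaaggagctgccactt
The Cish window runs over bases -100 to 25, chr9:107296559-107296683, plus strand, with the STAT letters in capitals.
Cish: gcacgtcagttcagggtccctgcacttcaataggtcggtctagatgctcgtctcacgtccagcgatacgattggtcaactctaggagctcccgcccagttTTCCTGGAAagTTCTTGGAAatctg
The Socs3 window runs over bases -180 to -100, chr11:117969466-117969546, minus strand, with the STAT letters in capitals.
Socs3: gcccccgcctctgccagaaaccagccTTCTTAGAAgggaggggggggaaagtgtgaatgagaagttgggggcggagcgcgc
The Pim1 window runs over bases -100 to -1, chr17:29490685-29490784, plus strand, with the GC box letters in capitals.
Pim1: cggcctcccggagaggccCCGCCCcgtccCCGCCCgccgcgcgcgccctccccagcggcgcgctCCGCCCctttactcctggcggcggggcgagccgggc

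The STAT letters stood in 2 of the 12 windows, at positions 1 and 12 of Cish and at -154 of Socs3, against 8.3% of 32851 RefSeq windows of the same length. The GATA letters stood in 1, at position -54 of Epor, against 11.2% of all windows. The GC box stood in 8 of the 12 windows, 1 for each of 8 genes, against 35.7% of all windows, with 7 matches in the upstream window of Pim1 and 5 in that of Ptpn6. In these windows the letters of different motifs did not overlap. The Pim1 windows held no STAT match, which says only that these letters are not within 300 bases at those starts. No binding data accompany the libraries, so the matches describe sequence alone.

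Epor had the highest level of the 10 genes. It stood at 30.43 TPM in replicate 2 and 31.24 TPM in replicate 1, a mean of 30.8 ± 0.573 (SD, n = 2). That was 6.95 times the median member level in replicate 2 and 7.12 times in replicate 1. By its mean TPM, Epor lay above 97.7% of 21461 nuclear protein-coding genes and above 93.9% of the 7990 that reached 1 TPM in both libraries. It lies on chromosome 9, from 21958897 to 21963506 on the minus strand of GRCm38. The authors' annotation gives it a single transcript of 1829 nt, so its 20336 counts in replicate 2 and 12618 in replicate 1 were not divided among isoforms. Both Epor values lay above all values of the other members.

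Jak2, the receptor's kinase, followed by mean TPM, at 8.33 TPM in replicate 2 and 7.42 TPM in replicate 1, mean 7.88 ± 0.643 (SD, n = 2). Within each library its rank was 3. Pim1 stood above it in replicate 2, at 8.97 TPM, and Stat5a in replicate 1, at 7.59 TPM. Jak2 lies on chromosome 19, from 29251828 to 29313080 on the plus strand. Epor transcripts were 3.65 times as abundant as Jak2 transcripts in replicate 2 and 4.21 times in replicate 1. Jak2-202, the transcript of 25 exons with an open reading frame of 1132 codons, held 97.8% of the gene's TPM in replicate 2 and 99.0% in replicate 1. Jak2 led the JAK family by mean TPM, with 38.5% of the family's summed TPM in replicate 2 and 30.9% in replicate 1. Its lead did not hold in both libraries. Tyk2 stood at 6.13 TPM in replicate 2 and 7.84 in replicate 1, which is above Jak2 in replicate 1 only. Jak1 stood at 5.17 TPM in replicate 2 and 6.86 TPM in replicate 1, so that Jak2 exceeded Jak1 1.61-fold in replicate 2 and 1.08-fold in replicate 1. Jak3, the kinase of lymphoid cytokine receptors, was lowest of the 4 at 2.01 TPM in replicate 2 and 1.88 TPM in replicate 1.

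The transcription factor genes Stat5a and Stat5b were both present, with means below that of Jak2. Stat5a stood at 4.76 TPM in replicate 2 and 7.59 TPM in replicate 1, mean 6.17 ± 2.0. Stat5b stood at 4.0 TPM in replicate 2 and 4.96 TPM in replicate 1, mean 4.48 ± 0.679 (SD, n = 2 each). Stat5b was the lower of the pair within each library, with a Stat5b to Stat5a ratio of 0.84 in replicate 2 and 0.653 in replicate 1, but the ranges of the 2 genes overlapped across libraries. By counts, which are not divided by length, the ratio was 1.3 in replicate 2 and 0.947 in replicate 1. The TPM ratio also takes in short transcripts. Stat5a-206, of 617 nt, gave 0.54 TPM in replicate 2 and 1.39 in replicate 1. Stat5b-203, of 727 nt, gave 0.19 in replicate 2 and 0.83 in replicate 1. The longer Stat5a-202 and Stat5a-203 stood at 1.95 and 1.86 TPM in replicate 2, beside 3.77 for Stat5b-201. In replicate 1 they stood at 2.85 and 2.78, beside 4.05. Together with Stat3, at 6.13 TPM in replicate 2 and 5.07 TPM in replicate 1, Stat5a and Stat5b were the 3 highest of the 7 STAT genes by mean TPM. Stat6 stood at 4.09 TPM in replicate 2 and 4.48 TPM in replicate 1, close to Stat5b. Stat2, a factor of interferon signalling, was lower at 1.23 TPM in replicate 2 and 1.15 TPM in replicate 1. Stat4 had 0 counts in each library, and a count of 0 allows a level of up to 0.033 CPM in replicate 2 and 0.0461 CPM in replicate 1.

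Stat5a and Stat5b lie head to head on chromosome 11, Stat5a from 100859351 to 100885169 on the plus strand and Stat5b from 100780731 to 100850724 on the minus strand. They are 8626 bases apart and are near copies of each other, so the split of reads between them was examined. The coding sequences of Stat5a-202 and Stat5b-201 were identical at 2131 of 2344 aligned bases (90.9%), and their longest identical run was 324 bases. Of all 50-base words, 16.5% of those in Stat5a-202 also occurred in Stat5b-201, and 12.1% the other way. Where the coding sequences are identical, as in the first stretch printed below, a read that lies within it matches both genes. The second stretch is the least alike of the 60-base stretches that align without gaps and lie within 1 exon of both transcripts. Capitals mark the bases that differ between the genes in the second stretch, of which 41 of 60 were identical. The first stretch is the same in both genes, at chr11:100861770-100861829 on the plus strand in Stat5a and chr11:100804918-100804977 on the minus strand in Stat5b. The second lies near the end of the coding sequence, at chr11:100883836-100883895 on the plus strand in Stat5a and chr11:100783161-100783220 on the minus strand in Stat5b. All 4 are GRCm38 positions, and each stretch lies within 1 exon.
Both genes: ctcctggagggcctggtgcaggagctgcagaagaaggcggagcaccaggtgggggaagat
Stat5a: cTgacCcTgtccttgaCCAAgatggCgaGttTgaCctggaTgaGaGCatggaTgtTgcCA
Stat5b: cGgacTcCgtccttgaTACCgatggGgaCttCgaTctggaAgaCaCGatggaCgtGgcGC

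The posterior standard deviation that the authors' tables give for each count was 0.22% of the Stat5a count in replicate 2 and 0.221% in replicate 1. For Stat5b it was 0.17% in replicate 2 and 0.233% in replicate 1. None of the 10 genes exceeded 1% in either library. By this measure the uncertainty of dividing reads between the pair was small. Whether the division of reads has a part in the difference in Stat5a between the libraries was not tested. The 3′ end of Stat5a also overlaps that of Stat3 by 72 bases on the other strand, and whether the counting used strand is not given in the sources used here.

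The 4 negative regulators lay between means of 6.27 TPM for Ptpn6 and 0.945 TPM for Socs3. Ptpn6, on chromosome 6 from 124720707 to 124738714 (minus strand), encodes the phosphatase SHP-1 and stood at 5.56 TPM in replicate 2 and 6.98 TPM in replicate 1, mean 6.27 ± 1.00 (SD, n = 2). Its relative Ptpn11, which encodes SHP-2 and promotes Ras signalling, stood at 6.20 TPM in replicate 2 and 8.93 TPM in replicate 1. Ptpn6 therefore held 47.3% of the TPM of that pair in replicate 2 and 43.9% in replicate 1. Sh2b3, on chromosome 5 from 121815488 to 121837646 (minus strand), encodes the adaptor LNK that restrains JAK2 and stood at 2.66 TPM in replicate 2 and 2.52 TPM in replicate 1, mean 2.59 ± 0.099. Sh2b1 stood at 1.90 TPM in replicate 2 and 2.59 TPM in replicate 1, so the order of Sh2b3 and Sh2b1 differed between libraries, while Sh2b2 had 7 counts in replicate 2 and 10 in replicate 1.

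Cish, the STAT5-induced inhibitor whose promoter window carries a pair of the STAT matches printed above, stood at 3.09 TPM in replicate 2 and 2.62 TPM in replicate 1, mean 2.85 ± 0.332. Socs3, an inhibitor of JAK activity that also binds the erythropoietin receptor, was the lowest of the 10 genes at 0.95 TPM in replicate 2 and 0.94 TPM in replicate 1, mean 0.945 ± 0.00707 (SD, n = 2 each). Cish lies on chromosome 9 from 107296026 to 107302784 on the plus strand and Socs3 on chromosome 11 from 117966079 to 117970047 on the minus strand. Cish transcripts outnumbered those of Socs3 3.25-fold in replicate 2 and 2.79-fold in replicate 1. Of the 8 genes of the SOCS family, Socs7 and Socs2 lay above Cish in both libraries, though Socs2 and Cish were close in replicate 2. Socs2, itself a STAT5 target, stood at 3.12 TPM in replicate 2 and 3.42 TPM in replicate 1 and Cish held 19.2% of the family's TPM in replicate 2 and 15.7% in replicate 1. Socs3 held 5.9% in replicate 2 and 5.63% in replicate 1. Only Socs1 was lower than Socs3 by mean TPM, at 0.18 TPM in replicate 2 and 0.22 TPM in replicate 1.

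Lyn, on chromosome 4 from 3678115 to 3813122 (plus strand), encodes a Src-family kinase that associates with the erythropoietin receptor. It stood at 3.01 TPM in replicate 2 and 2.81 TPM in replicate 1, mean 2.91 ± 0.141 (SD, n = 2). Lyn held 75.3% of the summed TPM of the 8 Src-family kinases in replicate 2 and 64.2% in replicate 1. Lck was next at 0.64 TPM in replicate 2 and 1.27 TPM in replicate 1, Src stood at 0.34 TPM in replicate 2 and 0.28 TPM in replicate 1, and Fyn, Yes1, Fgr and Blk had between 0 and 2 counts. Both Lyn values lay above every value of these relatives. Csk, the kinase that inhibits Src-family kinases, was higher than Lyn at 10.24 TPM in replicate 2 and 14.11 TPM in replicate 1.

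Pim1, a STAT5 target that encodes a serine/threonine survival kinase, had the widest spread of the 10 genes. It stood at 8.97 TPM in replicate 2 and 3.82 TPM in replicate 1, mean 6.40 ± 3.64 (SD, n = 2). Its rank among the 10 was therefore 2 in replicate 2 and 6 in replicate 1. Pim1 made up 66.4% of the TPM of the 3 PIM kinase genes in replicate 2 and 41.2% in replicate 1, and was the highest of them in both. Pim3 stood at 2.26 TPM in replicate 2 and 3.40 TPM in replicate 1 and Pim2 at 2.28 TPM in replicate 2 and 2.06 TPM in replicate 1, so that Pim1 exceeded Pim2 3.93-fold in replicate 2 and 1.85-fold in replicate 1.

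**Figure D1:**
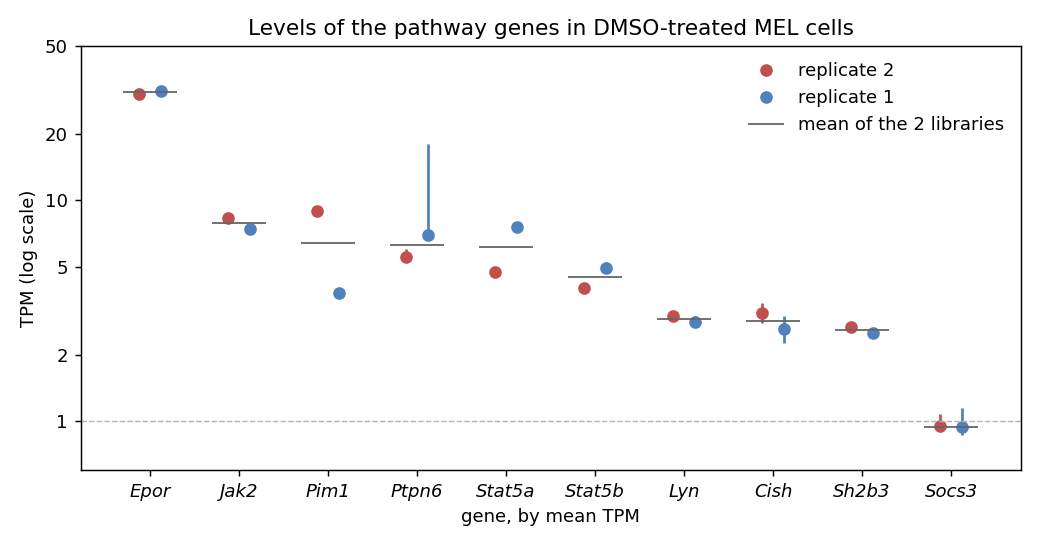
TPM of each of the 10 genes on a log axis, ordered by mean, with replicate 2 left of replicate 1; points are the deposited values, vertical lines the authors' TPM intervals, whose level is not stated, horizontal lines the means, and the dashed line marks 1 TPM. Epor stands at 30.8 ± 0.573 TPM, apart from the rest, Socs3 lies just under 1 TPM, and the 2 Pim1 points are farthest apart.

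In the order of levels, each gene was set against its neighbour by whether the values of the libraries overlapped. Epor lay apart from Jak2, Stat5b apart from Lyn, and Sh2b3 apart from Socs3. The other neighbours overlapped. Some genes that are not next to each other did separate: Jak2 lay above Ptpn6 and Stat5b in both libraries, Ptpn6 above Stat5b, and Lyn above Sh2b3. The order of Jak2 and Ptpn6 did not hold by posterior mean TPM. By that estimate Ptpn6 stood above Jak2 in replicate 1, at 10.82 against 7.40. In replicate 2 it stood below, at 5.75 against 8.32. In all, 9 of the 10 genes reached 1 TPM in each library, against 37.2% of 21461 nuclear protein-coding genes. The exception was Socs3. The median of the 10 genes was 4.38 TPM in replicate 2 and 4.39 TPM in replicate 1. For the nuclear protein-coding genes that reached 1 TPM it was 3.98 TPM in replicate 2 and 4.83 TPM in replicate 1.

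**Figure D2:**
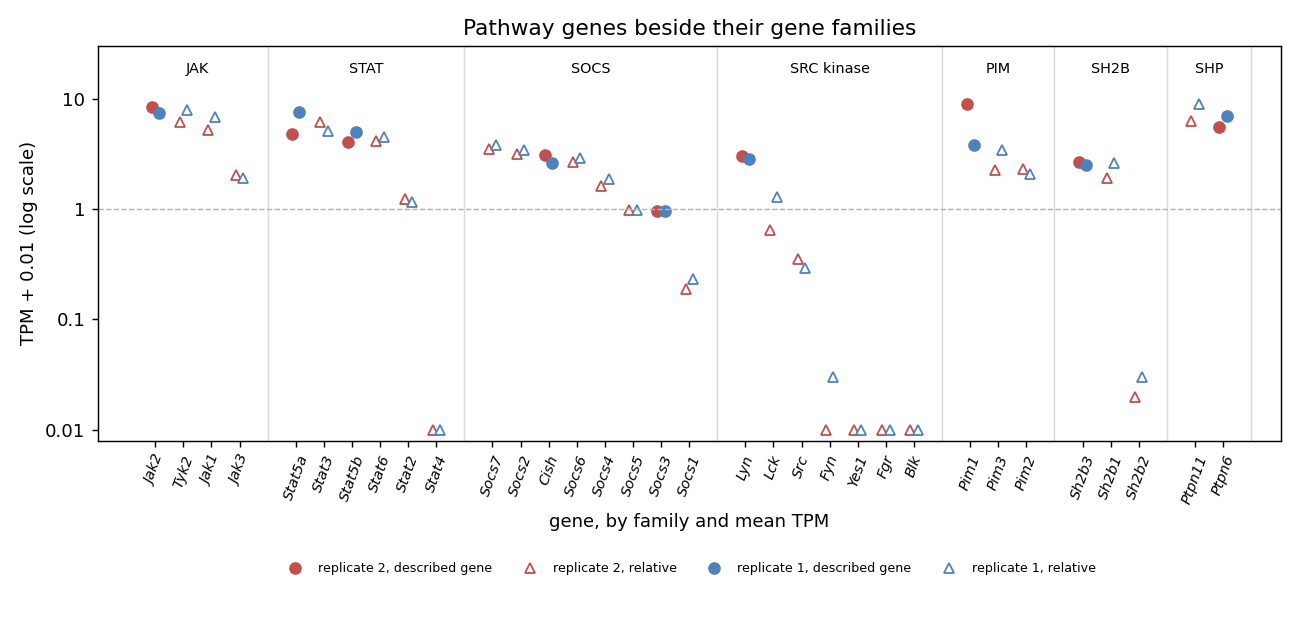
TPM + 0.01 on a log axis for the pathway genes (filled circles) and relatives (open triangles) in 7 gene families, with replicate 2 left of replicate 1 and a dashed line at 1 TPM; genes at 0 sit at 0.01. Lyn stands above the relatives shown in both libraries, whereas the libraries disagree on whether Jak2 or Tyk2 is higher.

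The reads of the 2 libraries were then compared gene by gene, with an exact two-sided binomial test on TMM-scaled counts and Benjamini-Hochberg adjustment over 15272 genes. This tests the libraries, which share 1 condition, and covers counting error only, so its p-values do not take in the spread between cultures. Calls needed an adjusted p below 0.05 together with at least a 2-fold difference. Of all genes tested, 6.31% were called (2.39% higher in replicate 2 and 3.92% lower), and 61.5% passed the adjusted p alone. All 10 genes passed the count filter.

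Of the 10 genes only Pim1 was called. It had 8900 counts in replicate 2 and 2287 in replicate 1, and was 2.85-fold higher in replicate 2, a log2 ratio of 1.51 with a 95% interval of 1.44 to 1.58. Its adjusted p in the exact binomial test was too small to be written as a number above 0. A larger difference in either direction was found in 0.776% of genes with 100 or more counts. Pim1 lies on chromosome 17 from 29490753 to 29496112, plus strand, and has a single transcript in the authors' annotation. The antisense gene Gm26885, which overlaps its first 1173 bases, had 89 counts in replicate 2 and 38 in replicate 1.

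Genes of the mature red cell differed the same way as Pim1. Of the 8 erythroid markers, 6 were called higher in replicate 2, with log2 ratios between 1.15 and 2.79, a range that holds the Pim1 value. Slc4a1, which encodes the anion exchanger band 3, had 10412 counts in replicate 2 and 1100 in replicate 1, and Alas2, the erythroid heme synthesis enzyme, had 91200 in replicate 2 and 19455 in replicate 1. Hba-a1, an alpha globin gene whose reads are shared with a near-identical copy, stood at 3934 TPM in replicate 2 and 2038 TPM in replicate 1. The beta globin gene Hbb-bt and the membrane skeleton gene Epb42 had log2 ratios of 1.40 and 1.82. The erythroid transcription factors were closer, with log2 ratios of 0.43 for Gata1 and 0.18 for Klf1, neither called. The summed level of the 8 markers was 4751 TPM in replicate 2 and 2439 TPM in replicate 1. Whether the difference in erythroid markers, or in ribosomal RNA, has a part in that of Pim1 was not tested. More cells of one stage and more RNA per cell cannot be told apart in bulk RNA.

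The other 9 genes differed by less than 2-fold. By the adjusted p alone 8 of the 10 genes, Pim1 included, were higher in replicate 2 and 1 was lower, beside 31.3% of all genes higher and 30.1% lower. These shares were not matched for counts. The 10 genes had 473 or more in each library, whereas the genes tested needed only 10 in at least 1 library. Jak2 had 16247 counts in replicate 2 and 8721 in replicate 1, a log2 ratio of 0.45 (exact binomial test, adjusted p = 8.71e-123). For Epor the log2 ratio was 0.24 with a 95% interval of 0.21 to 0.27, and 49.7% of genes differed more. The only negative value was that of Stat5a at -0.31, with 5803 counts in replicate 2 and 5275 in replicate 1. Stat5b stood at 0.14, so the pair differed in sign. Lyn, Cish, Sh2b3 and Socs3 lay between 0.35 and 0.46. Ptpn6 stood at 0.03 with an interval of -0.03 to 0.10 and did not pass the adjusted p (exact binomial test, adjusted p = 0.426). The median absolute log2 ratio was 0.24 among 11593 genes with 100 or more counts, and 95% of them lay within 0.88, so apart from Pim1 these ratios were within the ordinary spread of the libraries.

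The scale changed the sign of 3 small ratios and the size of others. On log2(TPM + 1) the median of all genes tested shifted to -0.10, and Epor stood at -0.04, Stat5b at -0.25 and Ptpn6 at -0.28. Relative to that median they were 0.07, -0.15 and -0.18. The positive ratios were smaller on this scale too, 0.15 for Jak2, 0.18 for Cish, 0.07 for Lyn, 0.06 for Sh2b3 and 0.01 for Socs3. The median of the 10 genes was 0.03 there, against 0.36 on TMM-scaled counts. Stat5a stayed negative and Pim1 positive on every scale tried, Pim1 at 1.05 on log2(TPM + 1).

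**Figure D3:**
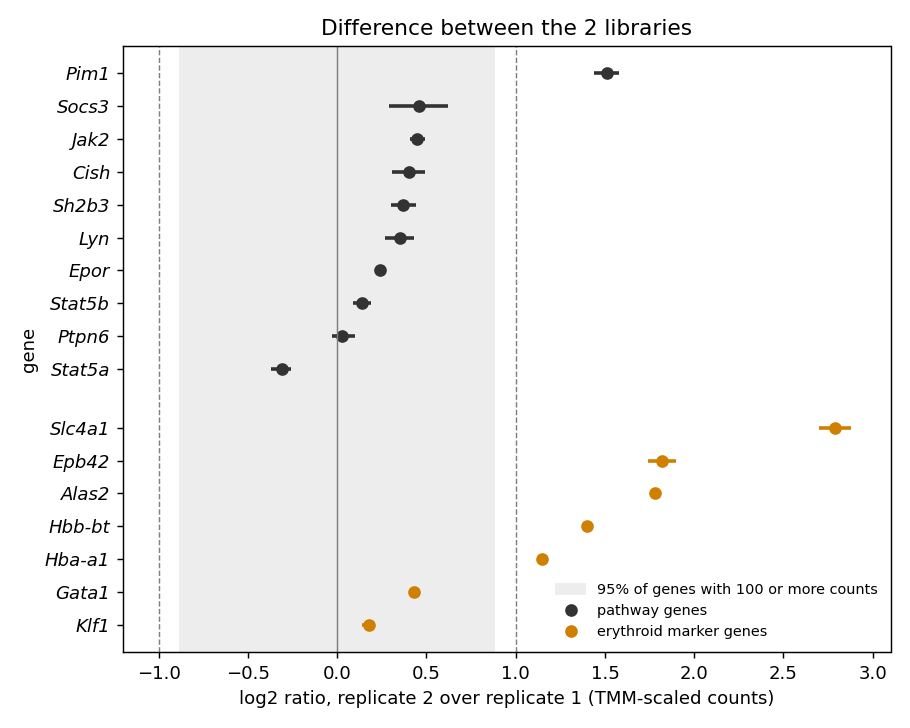
Log2 ratio of TMM-scaled counts, replicate 2 over replicate 1, for the 10 pathway genes (dark) and 7 erythroid marker genes (orange), with 95% intervals for counting error; the grey band holds 95% of genes with 100 or more counts and dashed lines mark 2-fold. Pim1 at 1.51 stands outside the band with 5 of the erythroid markers shown, while the other pathway genes lie between -0.31 and 0.46.

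The transcript tables divided each gene's TPM among its annotated transcripts, and by share of TPM the leading transcript of each of the 10 genes was the same in both libraries. Of the 43 transcripts, 10 had 0 counts in both libraries. Epor and Pim1 have 1 transcript each. For the inhibitors Sh2b3 and Cish the leading transcript had a much shorter open reading frame than the longest one of the gene.

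At Sh2b3, the transcript Sh2b3-205, annotated as subject to nonsense-mediated decay and with a reading frame of 370 codons, held 65.4% of TPM in replicate 2 and 69.1% in replicate 1. Sh2b3-202, which encodes a protein of 548 codons, held 33.1% in replicate 2 and 28.4% in replicate 1. The last 1006 bases of the Sh2b3 locus, at its 3′ end, overlap Atxn2 on the other strand, which stood at 4.25 TPM in replicate 2 and 5.38 TPM in replicate 1. The antisense gene Gm17041, which overlaps 1459 bases of Cish, had 44 counts in replicate 2 and 52 in replicate 1. Turning to Cish, Cish-204, with a reading frame of 62 codons, held 46.8% in replicate 2 and 42.4% in replicate 1. Cish-202, a processed transcript of 4697 nt without an annotated reading frame, held 22.0% in replicate 2 and 30.9% in replicate 1. Cish-201, with 257 codons, held 5.31% in replicate 2 and 2.34% in replicate 1, or 176.8 counts in replicate 2 and 39.7 in replicate 1. The short Cish-205 of 371 nt held 18.8% of TPM in replicate 2 and 11.8% in replicate 1, from 49.0 counts in replicate 2 and 16.2 in replicate 1. By counts, which are not divided by length, Cish-204 had 50.2% and Cish-202 41.5% in replicate 2, whereas in replicate 1 Cish-204 had 41.8% and Cish-202 led with 53.6%. The Cish share of any 1 transcript thus rested on few reads for the short ones, and no Cish transcript held a majority of TPM in either library.

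At Stat5a, Stat5a-202 (793 codons) and Stat5a-203 (797 codons) held 41.0% and 39.1% of TPM in replicate 2, and 37.5% and 36.7% in replicate 1. Stat5a-206, a fragment of 617 nt, held 11.2% in replicate 2 and 18.4% in replicate 1 with 97.9 counts in replicate 2 and 155.8 in replicate 1. At Stat5b, Stat5b-201 (786 codons) held 94.1% in replicate 2 and 81.8% in replicate 1. The processed transcript Stat5b-203 of 727 nt held 4.84% of TPM in replicate 2 and 16.8% in replicate 1, although it had 0.584% of the gene's counts in replicate 2 and 2.31% in replicate 1. Division by length gives such short transcripts a large share of TPM from few reads. Both Stat5a-206 and Stat5b-203 held a larger share in replicate 1 than in replicate 2.

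Lyn-201 (512 codons) and Lyn-202 (491 codons) held 61.7% and 30.5% in replicate 2, and 64.6% and 29.7% in replicate 1, close to each other across libraries. Ptpn6-202, with 595 codons, held 93.8% in replicate 2 and 89.4% in replicate 1. Ptpn6 was the member whose level depended most on how the authors' tables estimate it. Its posterior mean TPM was 5.75 in replicate 2 and 10.82 in replicate 1. In replicate 1 the table gave 32.6% of that posterior level to Ptpn6-205, a fragment of 134 nt with 0 estimated counts. Socs3-201 held 97.5% in replicate 2 and 84.4% in replicate 1, where the processed transcript Socs3-202 held the remaining 15.6% from 12 counts.

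**Figure D4:**
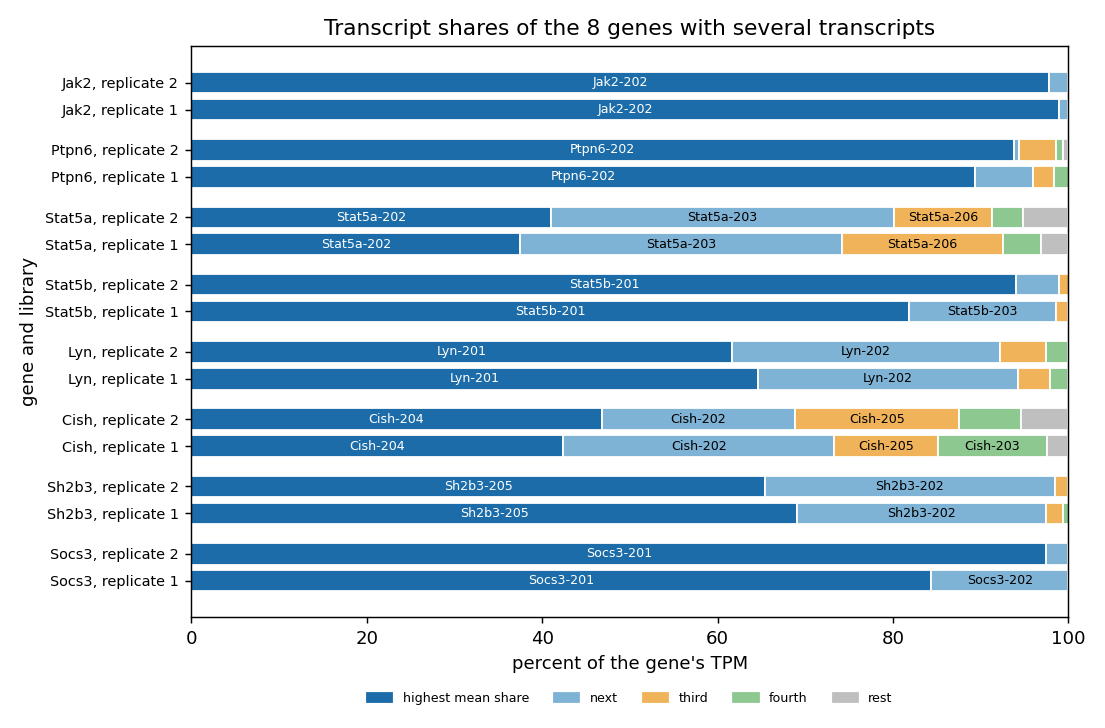
Percent of each gene's TPM held by its transcripts, replicate 2 above replicate 1, for the 8 genes with several annotated transcripts; colours give the order of mean shares and names are printed for shares of 10% or more. Jak2, Ptpn6, Stat5b and Socs3 are mostly 1 transcript, while Stat5a, Lyn, Cish and Sh2b3 are divided.

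The rest of the pathway was read from 7 lists of 100 further genes, of which 68 reached 1 TPM in each library. Between the libraries 81 of the 100 were tested and 1.23% were called, beside 4.75% of nuclear protein-coding genes tested. Their median log2 ratio was 0.11, beside 0.02 for nuclear protein-coding genes.

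Among 20 receptors and ligands, 6 were at 1 TPM or more and none was called. Epor was higher than each of them. Csf2rb, the beta chain shared by the receptors for IL-3, IL-5 and GM-CSF, stood at 12.02 TPM in replicate 2 and 7.69 TPM in replicate 1, with its near copy Csf2rb2 at 4.54 TPM in replicate 2 and 5.34 TPM in replicate 1. The partner chains for IL-3 and GM-CSF were almost absent, with 8 counts of Il3ra in each library and 0 counts of Csf2ra in replicate 2 and 2 in replicate 1. The partner chain for IL-5 was not among the genes listed. The transferrin receptor homologue Tfr2, which associates with the erythropoietin receptor, stood at 7.55 TPM in replicate 2 and 10.01 TPM in replicate 1, and Ifnar1 at 3.13 TPM in replicate 2 and 3.30 TPM in replicate 1. Kit, the stem cell factor receptor of early progenitors, had 7 counts in replicate 2 and 12 in replicate 1. Epo, the ligand of the receptor, had 0 counts in both libraries, as did Kitl, Thpo and Il3.

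Of 16 further STAT5 target genes, 14 were at 1 TPM or more, and the list's median was 4.83 in replicate 2 and 3.93 in replicate 1. Tfrc, the transferrin receptor, led at 41.21 TPM in replicate 2 and 38.12 TPM in replicate 1. Ccnd3, the D cyclin of erythroid precursors, stood at 25.02 TPM in replicate 2 and 22.91 TPM in replicate 1, Gfi1b at 21.26 TPM in replicate 2 and 23.82 TPM in replicate 1, and the survival gene Mcl1 at 19.33 TPM in replicate 2 and 18.53 TPM in replicate 1. Bcl2l1, which encodes the survival protein BCL-XL, fell short of the threshold at 0.78 TPM in replicate 2 and 0.81 TPM in replicate 1. It was nonetheless detected, with 623 counts in replicate 2 and 403 in replicate 1. Bcl6, which STAT5 represses, had 0 counts in replicate 2 and 1 in replicate 1. Trib3, a stress-induced pseudokinase gene, was the list's only call, with 6071 counts in replicate 2 and 1687 in replicate 1 and a log2 ratio of 1.40, near that of Pim1. The other genes of the list were not called, and among them Pim2 and Pim3 had ratios of 0.45 and -0.31, unlike Pim1.

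Of 16 further phosphatases, adaptors and ligases that act on cytokine signals, Ptpn11 and Sh2b1 among them, 12 were at 1 TPM or more and none was called. Inpp5d, the lipid phosphatase SHIP1, led at 7.68 TPM in replicate 2 and 9.09 TPM in replicate 1, above Ptpn6 in both. Ptpn2, a JAK phosphatase, stood at 5.54 TPM in replicate 2 and 5.39 TPM in replicate 1 and Pias3, an inhibitor of STAT factors, at 4.87 TPM in replicate 2 and 4.90 TPM in replicate 1. Among 8 other JAK and STAT genes 7 reached 1 TPM, of 6 other SOCS genes 4 did, and of 10 genes of the Src kinase list 3 did, namely Csk, Btk and Syk. None of these genes was called.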

How the data were processed

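Total RNA of MEL cells was sequenced in 2 libraries of 1 group. Per the labels, fragments were selected at 300 to 350 bases. The authors used mm10 and the GENCODE M4 annotation, as the deposited readmes state. The sources used here do not give the aligner and quantification program. The authors' tables give, per the file headers, estimated counts that need not be whole, TPM with interval bounds, FPKM, the percent of a gene's TPM held by each transcript, and a posterior SD of the count, treated as a score. The interval bounds have no stated level.

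Names, types and coordinates (1-based) came from GENCODE M21 on GRCm38, in which 42462 of 43346 Ensembl rows matched by identifier without version. Numbered tRNA and spike-in rows stayed in the authors' TPM totals and out of the tests. Counts were rounded to whole numbers, scaled by TMM (edgeR 4.0.16, R 4.3.3), filtered at 10 counts in at least 1 library and compared by an exact two-sided binomial test. Log2 ratios used 0.5 added, with exact (Clopper-Pearson) 95% intervals. Intervals and floors (3 counts, 0.033 CPM in replicate 2 and 0.0461 CPM in replicate 1) express counting error alone, because PCR copies of a molecule cannot be recognised. The 2 libraries differed far beyond sampling noise (chi-square 386 per degree of freedom, with counts scaled to library totals). They were counted as 2 samples, but this value cannot show whether they were separate cultures. The common biological coefficient of variation was 0.216. On simulated counts with known changes the test was checked before use. Those counts held counting error alone, so the check does not cover the extra spread between these libraries.

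The 10 genes and all gene lists were chosen with earlier results of these data known. Named genes are the 10 members and, for most lists, the 4 highest and the lowest of each list and any list gene that was called; the other list genes named were added for their role or their family. Some list genes count in their lists but are not reported here singly. Transcripts at 10% or more of TPM in either library were named, and Cish-201 was added after its value was seen. Alternatives were other scalings (DESeq2 1.42.0 size factors, total counts, TPM, FPKM), filters, thresholds and each library alone.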

Additional observations from a re-analysis of the deposited data

How the results depend on the processing

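Pim1 was the only one of the 10 genes called under DESeq2 size factors, total counts, no filter, 100 or more counts, posterior mean counts and a 1.5-fold threshold; with the adjusted p alone 9 of the 10 genes passed. Over all genes the calls numbered 963, and 395 with 100 or more counts, 2412 at 1.5-fold and 9385 with the adjusted p alone. The log2 ratio changed sign on the TPM scales for Epor (-0.04 with 1 or 0.1 added), Stat5b (-0.25 with 1 added, -0.30 with 0.1 added) and Ptpn6 (-0.28 and -0.32). With TPM rescaled to nuclear protein-coding genes, a setting chosen after seeing the data, Stat5b stood at -0.25 and Ptpn6 at -0.26. These scales shift the median of all genes tested by -0.10, -0.23 and -0.18 and put the median of the 10 genes at 0.03, 0.04 and 0.10, against 0.36 with TMM, and the cause of the sign changes was not tested. Of 60 ranks recomputed under other level units or with 1 library, 11 moved, none of them for Epor or Socs3, and the mean share of Ptpn6-202 was 73.3% by posterior means. All rank moves arose under posterior mean TPM or with 1 library. The other level units keep the order of genes within each library, so they could hardly move a rank. Of 202 values recomputed in all, 178 kept their direction, call or spread. That number includes alternatives that could not differ, such as FPKM ratios within a library, which equal TPM ratios. It is therefore not a measure of how robust the results are. No paired analysis was possible because the series has 1 group. With 2 libraries, no spread between conditions can be had, and Socs3, with 473 counts in replicate 1, has the widest counting interval of the 10 genes.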

Other observations

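The Ras and PI3K branches that leave the erythropoietin receptor beside STAT5 were present almost throughout. Of 24 genes, 22 reached 1 TPM in each library, the median was 4.94 in replicate 2 and 6.53 in replicate 1, and none was called between the libraries. Akt1, the survival kinase of the PI3K branch, stood at 25.14 TPM in replicate 2 and 37.28 TPM in replicate 1, and Map2k2, a kinase of the Ras branch, at 20.59 TPM in replicate 2 and 26.94 TPM in replicate 1. Hras stood at 11.41 TPM in replicate 2 and 23.22 TPM in replicate 1. The 2 genes under 1 TPM were the docking proteins Gab1, at 0.74 TPM in replicate 2 and 0.85 TPM in replicate 1, and Gab2, at 0.42 TPM in replicate 2 and 0.53 TPM in replicate 1.

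Markers of other blood lineages were read beside the pathway. Of 8 megakaryocyte markers, Pf4 stood at 24.69 TPM in replicate 2 and 34.06 TPM in replicate 1 and Itga2b at 19.08 TPM in replicate 2 and 11.06 TPM in replicate 1. Itga2b was called higher in replicate 2 with a log2 ratio of 1.12, while Pf4 had a ratio of -0.20. Ppbp had 0 counts in both libraries. The summed level of 8 myeloid markers was 1.09 TPM in replicate 2 and 1.57 TPM in replicate 1, with Cebpa the highest at 0.53 TPM in replicate 2 and 0.77 TPM in replicate 1. The 8 lymphoid markers summed to 0.31 TPM in replicate 2 and 0.15 TPM in replicate 1, almost all of it Cd3g, called higher in replicate 2 from 95 counts against 26 in replicate 1. The 8 mast cell markers summed to 0.35 TPM in replicate 2 and 0.45 TPM in replicate 1.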
